A study of Mus musculus with 6 samples.

Results

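A set of 8 suprabasal genes was followed through RNA-seq of epidermal cells of newborn mice: the keratin genes Krt1, Krt10, Krt77, Krt2, Krt78 and Krt80, and the spinous genes Krtdap and Sbsn, 8 of the 17025 genes measured. They are found in the table by name. The set was chosen by measured values, because Krt10, Krt1 and Krt77 stood among the largest differences between the groups compared here, and the other 5 genes were added as relatives or as genes thought to be expressed with them. The difference between the groups is therefore given for these genes as a description, with no test. The series asks how ASH2L, a subunit shared by the enzymes that methylate lysine 4 of histone H3, acts on epidermal differentiation, hair follicles and Notch signalling. Libraries were made from epidermal progenitor cells sorted for integrin α6 at postnatal day 0. All mice carried K14Cre, in which the promoter of the basal keratin gene Krt14 drives the recombinase. The 3 control libraries came from mice with the genotype K14Cre,Ash2lF/+, which also lose 1 floxed allele where Cre acts, and the 3 cKO (conditional knockout) libraries from K14Cre,Ash2lF/F mice. No treatment was given. The labels do not say whether each library came from its own animal or from pooled animals, so the spread given here is that between libraries and may be technical.

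Keratins are the filament proteins of epithelial cells and work as pairs of a type I with a type II chain. Basal keratinocytes, which sit on the basement membrane, make the pair KRT5 (type II) and KRT14 (type I). On leaving the basement membrane they become spinous cells and switch to KRT1 (type II) and KRT10 (type I). Krt77, Krt2, Krt78 and Krt80 encode further type II chains, of which KRT2 is known from the upper spinous and granular layers. Krtdap and Sbsn encode secreted proteins of the suprabasal epidermis and lie on either side of Dmkn, the gene of another such protein.

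The promoters are shown first, to compare members with like patterns across the libraries with members of other patterns. RefSeq start sites (build GRCm38.p6) were found for 6 of the 8 genes, and the sequences below are the 250 bases before the start of 4 of them, 5′ to 3′ on the strand of the gene. They belong to 2 keratins with like patterns and to the 2 secreted protein genes, whose patterns differed from theirs. Capitals mark matches to any of 6 short motifs, searched on both strands. The Krt10 window is chr11:99389365-99389614 (minus strand), the Krt77 window chr15:101869706-101869955 (minus strand), the Krtdap window chr7:30787655-30787904 (plus strand) and the Sbsn window chr7:30751221-30751470 (plus strand).
Krt10: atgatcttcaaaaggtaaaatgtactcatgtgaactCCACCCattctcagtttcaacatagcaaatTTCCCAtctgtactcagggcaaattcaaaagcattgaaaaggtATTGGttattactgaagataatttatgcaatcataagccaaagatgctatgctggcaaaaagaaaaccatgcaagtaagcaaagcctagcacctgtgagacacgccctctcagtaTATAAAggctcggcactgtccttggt
Krt77: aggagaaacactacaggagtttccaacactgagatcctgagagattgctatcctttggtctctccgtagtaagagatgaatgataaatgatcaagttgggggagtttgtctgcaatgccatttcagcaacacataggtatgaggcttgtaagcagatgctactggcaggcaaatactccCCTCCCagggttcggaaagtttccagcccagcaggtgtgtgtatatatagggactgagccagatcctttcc
Krtdap: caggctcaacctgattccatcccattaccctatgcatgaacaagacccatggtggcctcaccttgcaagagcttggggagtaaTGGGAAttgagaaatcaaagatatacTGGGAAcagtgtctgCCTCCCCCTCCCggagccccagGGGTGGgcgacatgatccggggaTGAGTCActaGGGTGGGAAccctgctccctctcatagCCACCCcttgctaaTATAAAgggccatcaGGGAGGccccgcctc
Sbsn: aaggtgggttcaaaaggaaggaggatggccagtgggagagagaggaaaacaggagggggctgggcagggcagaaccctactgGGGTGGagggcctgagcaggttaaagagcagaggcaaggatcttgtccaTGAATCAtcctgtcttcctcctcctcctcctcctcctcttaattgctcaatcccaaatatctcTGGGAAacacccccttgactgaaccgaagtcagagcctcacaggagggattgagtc

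The TATA box letters TATAAA lie at -26 to -21 before the start of Krt10 and at -30 to -25 before that of Krtdap, and in none of the other 4 windows; 12.4% of 32851 promoter windows of the same length hold them. The AP-1 letters TGANTCA lie in the windows of Krtdap (-81 to -75) and Sbsn (-119 to -113), and also in all 3 start site windows of their neighbour Dmkn, against 6.75% of all windows. The Dmkn windows that start at chr7:30763506 and chr7:30763508 overlap almost wholly and hold the same match, so they do not count apart. The RBPJ letters TGGGAA, read by the nuclear partner of Notch, were found 3 times before Krtdap, once each before Sbsn and Krt10, and in 21.6% of all windows. In Krtdap the RBPJ match at -68 to -63 overlaps a match to the Sp/KLF letters GGGNGG at -71 to -66. The GGGNGG letters are common, being found in 64.5% of all windows, and are absent only from Krt2 among the 6. The CCAAT box (33.85% of windows) was matched in Krt10 and Krt2. The AP-2 letters GCCNNNGGC (13.7% of windows) were not in any of the 6 windows. A match is a run of letters and not a measured binding site.

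Each library held 31578875 to 36027550 fragments, recovered from the deposited FPKM values (fragments per kilobase of gene model per 1e6 fragments). Ash2l, the targeted gene, stood at 12.4, 18.1 and 15.9 FPKM in control 1, 2 and 3, and at 30.9, 29.5 and 22.9 FPKM in cKO 1, 2 and 3. It was thus higher where the labels place the knockout (limma adjusted p = 0.0240, log2 difference 0.81; exact two-sided permutation p = 0.1, the smallest that 3 against 3 can give). The adjusted p rose to between 0.0564 and 0.0828 without control 1, control 3, cKO 1 or cKO 2. A sum over the whole gene does not tell if the floxed exon is gone. Directions below rest on labels that the targeted gene goes against, so the groups are named by their label throughout, and control 1 or cKO 3 means the library labelled so. The submitters' library names begin with A-C for the control label and A-W for the cKO label. Every direction given here, rose and fell included, is cKO label against control label and would turn if the labels were exchanged. Genes of basal cells were plentiful in all libraries, with Krt5 at 2249 to 4876 FPKM and Krt14 at 1683 to 3147 FPKM. Itga6, the gene of the sorted integrin, stood at 162, 78.8 and 72.0 FPKM in the control-labelled libraries and at 53.6, 53.0 and 19.7 FPKM in the cKO-labelled ones (log2 difference -1.32, SE 0.44, limma adjusted p = 0.0710).

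Krt10, the type I chain of spinous cells, stood at 1693, 2489 and 2292 FPKM in control 1, 2 and 3. In cKO 1, 2 and 3 it stood at 18346, 19446 and 36869 FPKM. The groups did not overlap, control 1 was the lowest library and cKO 3 the highest. The share of all genes whose groups do not overlap is not given here, so this is a description for each member. The means were 2158 ± 414 and 24887 ± 10391 FPKM (SD, n = 3 each), 11.5-fold apart, or 3.47 (SE 0.28) on the log2(FPKM + 1) scale. Krt10 ranked 3 to 5 among all genes of the control-labelled libraries and 1 in every library labelled cKO.

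Krt1, its type II partner, followed the same order of libraries at a lower level. It stood at 1387, 2139.6 and 1973 FPKM in the control-labelled libraries and at 12004, 12030.0 and 26575 FPKM in the cKO-labelled ones. Here too no library of one group reached the other, and control 1 and cKO 3 were the extremes. The means of 1833 ± 395 and 16869.7 ± 8405 FPKM were 9.20-fold apart (log2 difference 3.12, SE 0.32). Krt1 ranked 5 to 7 in the control-labelled libraries and 2 in all the cKO-labelled ones.

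Krt77, a type II gene that lies next to Krt1, had a like pattern at a far lower level. Its FPKM was 3.70, 6.54 and 7.80 in the control-labelled libraries and 50.3, 39.98 and 83.9 in the cKO-labelled ones. The groups did not overlap, and the lowest and highest libraries were again control 1 and cKO 3. The means were 6.01 ± 2.10 and 58.0 ± 22.9 FPKM, 9.65-fold apart (log2 difference 3.05, SE 0.32). Krt77 as a percentage of Krt1 was 0.267, 0.305 and 0.396% in the control-labelled libraries and 0.419, 0.332 and 0.316% in the cKO-labelled ones, ranges that overlapped.

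**Figure D1:**
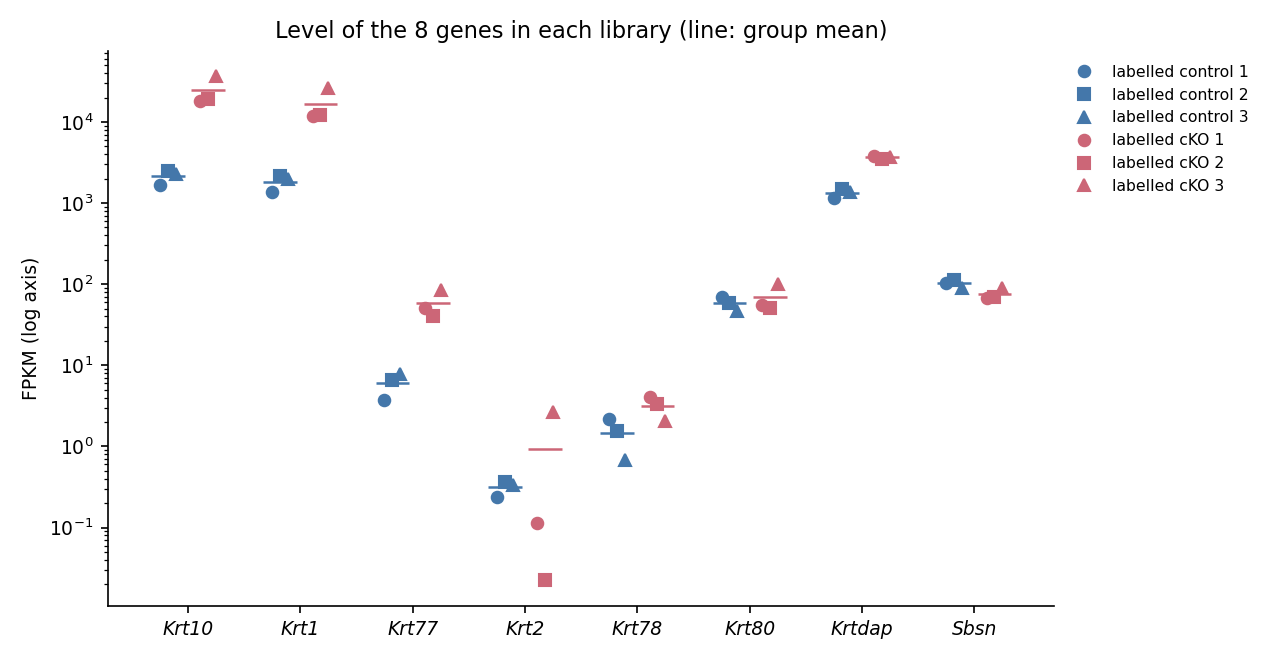
FPKM of the 8 genes (log axis) in the 3 control-labelled libraries (blue) and the 3 labelled cKO (red), with the mean of each group as a line. Krt10, Krt1, Krt77 and Krtdap are higher in every library labelled cKO, Sbsn is slightly lower (89.1 FPKM in cKO 3 against 90.4 in control 3; its groups overlap under both other scalings), and Krt2 stands out in cKO 3 alone (2.64 FPKM).

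Krt2, on the other side of Krt1, did not follow it. The gene had few fragments in 5 libraries, with 20, 32 and 29 fragments in the control-labelled ones and 10 and 2 in cKO 1 and 2. In cKO 3 there were 251 fragments. These are 0.240, 0.367 and 0.335 FPKM against 0.113, 0.0223 and 2.64 FPKM. The exact Poisson 95% interval for cKO 3, which covers counting error only, was 2.32 to 2.99 FPKM, and the highest upper bound of the other 5 libraries was 0.518 FPKM. The intervals of cKO 1 (0.0541 to 0.207) and cKO 2 (0.00270 to 0.0804) lay below those of control 2 (0.251 to 0.518) and control 3 (0.225 to 0.481). That of control 1 (0.147 to 0.371) lay above the interval of cKO 2 but overlapped that of cKO 1. By their values, the 3 libraries labelled cKO lay on both sides of the control-labelled ones. The mean difference of 0.29 (log2) became -0.30 without cKO 3. With a mean of 0.620 FPKM over the 6 libraries Krt2 was the only one of the 8 genes below the minimum of 1 FPKM used for testing.

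Krt78 and Krt80, the other type II chains, differed less. Krt78 stood at 2.16, 1.57 and 0.674 FPKM in the control-labelled libraries and at 4.06, 3.32 and 2.05 FPKM in the cKO-labelled ones (log2 difference 0.77, SE 0.31). The groups overlapped, since cKO 3 lay below control 1, and cKO 3 was here the lowest of its group. With the values scaled by the median of ratios, or to a library total without the 8 genes, the 2 groups of Krt78 no longer overlapped. Krt80 stood at 69.8, 59.3 and 46.2 FPKM and at 55.7, 51.2 and 101 FPKM, with cKO 1 and 2 inside the range of the control-labelled libraries and cKO 3 above it. Its difference of 0.20 (SE 0.27) became -0.11 without cKO 3.

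Krtdap, the first of the 2 secreted protein genes, stood at 1168, 1511 and 1353 FPKM in the control-labelled libraries and at 3828, 3465 and 3738 FPKM in the cKO-labelled ones. The groups did not overlap and each was tight, with means of 1344 ± 172 and 3677 ± 189 FPKM. The fold was 2.74 (log2 difference 1.46, SE 0.13), smaller than those of Krt1, Krt10 and Krt77. Unlike those keratins, Krtdap was no higher in cKO 3 than in cKO 1.

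Sbsn did not follow Krtdap, Krt1, Krt10 and Krt77. It stood at 103, 113 and 90.4 FPKM in the control-labelled libraries and at 67.3, 70.4 and 89.1 FPKM in the cKO-labelled ones, a log2 difference of -0.43 (SE 0.15) with control 3 and cKO 3 nearly equal. All genes tested had a median of -0.17, and median-of-ratios scaling shifted that median to 0.03. Under that scaling the difference of Sbsn was -0.21 and its groups overlapped (80.9 to 105 and 67.8 to 107). They also overlapped when the library total was taken without the 8 genes. Sbsn was chosen as a gene expressed with the spinous keratins, and in these 6 libraries its level did not follow theirs. Levels per length, and so ratios between genes, depend on the gene models. Those implied by the FPKM values often differed from the exon length in the GENCODE M21 annotation: 8567 against 3625 bases for Sbsn, 5020 against 3437 for Krt78, 2447 against 4415 for Krt1, 3323 against 6393 for Krt80, 2509 against 2931 for Krt77 and 462 against 679 for Krtdap. They were close for Krt2 (2638 and 2613) and equal for Krt10 (2114). A gene has the same model in all 6 libraries, so the model length does not change comparisons between libraries. Which reads a model takes in may still change them. The model of Sbsn is longer than the whole span of the gene in GENCODE M21 (4664 bases). In that annotation exons of Krt10 overlap Gm11940 and those of Krt80 overlap Gm35853 on the opposite strand, and exons of Sbsn overlap Tmem147os on the same strand, so some reads may belong to either gene.

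Dmkn lies between Sbsn and Krtdap in the GRCm38 annotation, and the 3 genes make up a locus of secreted epidermal proteins. Dmkn averaged 437 and 958 FPKM, 2.19-fold higher with the cKO label (log2 difference 1.13, SE 0.12, limma adjusted p = 0.00168). The ratio of Krtdap to Dmkn was 2.79, 3.35 and 3.06 in the control-labelled libraries and 4.16, 3.93 and 3.49 in the cKO-labelled ones. The ratio of Krtdap to Sbsn was 11.4, 13.3 and 15.0, and 56.9, 49.2 and 41.9. Krtdap and Dmkn were thus higher with the cKO label while Sbsn, on the other side of Dmkn, was not. At the keratin locus the order is Krt2, Krt1, Krt77 and Krt76, and Krt76 had a value above 0 only in cKO 3 (0.108 FPKM). Krt79, the neighbour of Krt78, averaged 197 and 1113 FPKM and rose (log2 difference 2.50, SE 0.13, limma adjusted p = 0.000286). The neighbours of Krt10, Krt28 and Krt12, reached at most 8.97 and 7.53 FPKM in any library.

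Patterns across the 6 libraries were compared by a distance. It is a description only, since Krt1, Krt10 and Krt77 were chosen for large differences between the groups and are close in part for that reason. After subtraction of each gene's mean over the 6 libraries, the root mean square difference of log2(FPKM + 1) was 0.181 between Krt1 and Krt77, 0.189 between Krt1 and Krt10 and 0.278 between Krt10 and Krt77. Krtdap lay 0.872 to 1.06 from these 3 genes and Sbsn 1.78 to 1.97. Between the other members the distance was 0.389 for Krt80 and Sbsn, 0.525 for Krt78 and Krtdap and 0.593 for Krt78 and Krt80. Among 11388 other genes the closest to both Krt1 (0.142) and Krt10 (0.157) was Npl, which encodes N-acetylneuraminate pyruvate lyase, an enzyme that breaks down sialic acid. Npl stood at 17.2, 25.2 and 28.6 FPKM in the control-labelled libraries and at 176, 183 and 434 FPKM in the cKO-labelled ones. Next for both came Gpt, an alanine transaminase gene (0.159 from Krt1 and 0.229 from Krt10), then Cyp2w1 for Krt1 (0.252) and the ceramidase gene Acer1 for Krt10 (0.331). The closest to Krt77 was Il34 (0.210), a cytokine gene, followed by Npl (0.224) and Gpt (0.273). Different genes lay closest to Krtdap, Sbsn and Krt78: Slc16a14 (0.0913), Rab3d (0.0981) and Efs (0.108) to Krtdap, Ipo13 (0.0520), Arfrp1 (0.0549) and Llgl2 (0.0661) to Sbsn, and Efemp1 (0.132), Rnf43 (0.155) and Scd1 (0.162) to Krt78. Slc16a14 was a low gene, at 0.192 to 0.361 FPKM with the control label and 2.31 to 2.44 FPKM with the cKO label. Its distance to Krtdap thus depends on the 1 FPKM added before the log. Genes that vary little are close to one another on this measure, which may hold for Krt80 and Sbsn. The distances to the closest genes are therefore not compared between members.

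**Figure D2:**
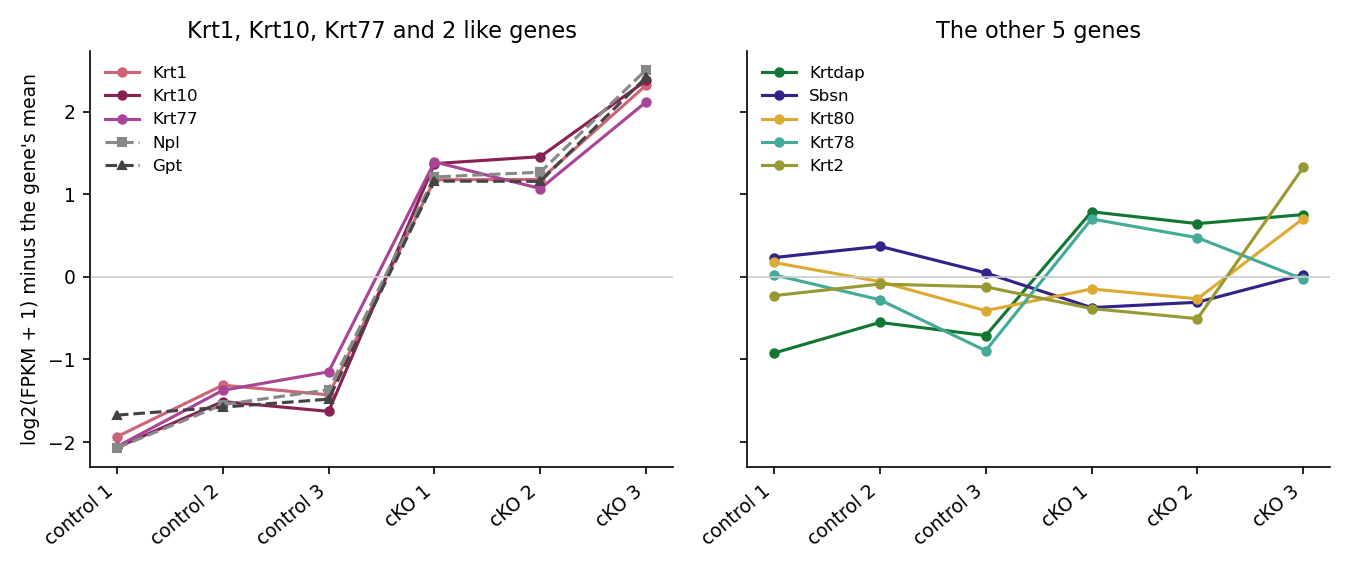
log2(FPKM + 1) minus the mean of the gene over the 6 libraries; lines only join the values of a gene. Left, Krt1, Krt10 and Krt77 with Npl and Gpt, which are lowest in the control-labelled libraries and highest in cKO 3. Right, the other 5 genes, of which Krtdap is higher in all libraries labelled cKO and Krt2 and Krt80 are high in cKO 3 alone.

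Within the cKO-labelled libraries, cKO 3 stood apart for all the keratins of the set, being the highest for each but Krt78. In the values as deposited, its level over the mean of cKO 1 and 2 was 2.21-fold for Krt1 and 1.95-fold for Krt10. The level was 1.86-fold for Krt77 and 1.90-fold for Krt80. It was 1.03-fold for Krtdap, 1.29-fold for Sbsn and 0.556-fold for Krt78. Keratins outside the set went both ways in cKO 3. By the same measure Krt15 was 1.62-fold, Krt17 1.48-fold and Krt5 1.41-fold, so a high cKO 3 was not particular to the set. Krt14 was 0.750-fold, Krt16 0.614-fold and Krt6a 0.324-fold. Without cKO 3 the log2 differences between the groups were 2.74 for Krt1, 3.15 for Krt10, 2.76 for Krt77, 1.45 for Krtdap and -0.56 for Sbsn. The same library had the lowest Itga6 (19.7 FPKM) and the lowest sums of fibroblast and dermal condensate markers (397 FPKM, against 1179 and 1020 in cKO 1 and 2) and of melanocyte markers (200 FPKM, against 432 and 416). By the mean log2(FPKM + 1) of the fibroblast and dermal condensate markers, control 1 (3.42) lay below cKO 3 (3.62). The part of Itga6 and of these markers in the high keratin values of cKO 3 was not tested.

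Krt1 and Krt10 made up a visible part of the whole library. Together they took 0.697, 1.05 and 0.967% of all fragments in the control-labelled libraries, and 6.82, 7.05 and 14.3% in the cKO-labelled ones. The other 6 genes together took 0.158 to 0.189% and 0.249 to 0.306%. FPKM is relative to the library total; with the 8 genes taken out of the total, the median of all genes moved from -0.17 to -0.05. Since every library is a bulk sample, more spinous cells and more keratin RNA per cell cannot be told apart.

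The ratio of the 2 partners was lower with the cKO label. Krt1 over Krt10 was 0.819, 0.860 and 0.861 in the control-labelled libraries (0.847 ± 0.0236) and 0.654, 0.619 and 0.721 in the cKO-labelled ones (0.665 ± 0.0518). The groups did not overlap, and Krt10 exceeded Krt1 in every library. A ratio within a library does not depend on how its total is scaled. Summed over the 22 type II and 26 type I keratin genes in the table, type II over type I was 0.834, 0.744 and 0.790 against 0.673, 0.637 and 0.733.

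Set against the basal pair, the spinous pair held the larger part of keratin FPKM in all libraries with the cKO label. Krt10 over Krt14 was 0.538, 1.14 and 1.36 in the control-labelled libraries and 8.53, 7.53 and 20.8 in the cKO-labelled ones. Krt1 over Krt5 was 0.355, 0.951 and 0.853 and then 3.63, 3.34 and 5.45. Of all keratin FPKM, Krt1 and Krt10 held 20.2, 31.5 and 33.4% in the control-labelled libraries and 73.4, 72.9 and 81.6% in the cKO-labelled ones. Krt5 and Krt14 held 46.3, 30.2 and 31.3% and then 13.2, 14.3 and 8.56%, although their own levels did not pass the test (log2 differences 0.51, SE 0.24, and -0.08, SE 0.24; limma adjusted p = 0.184 and 0.853). The sign for Krt14 was positive under median-of-ratios scaling and when the 8 genes left the total. The wound keratins Krt6a, Krt6b, Krt16 and Krt17 held 26.3 to 32.8% and then 3.20 to 4.82%. The level of Krt17 itself was not lower (means of 1487 and 1706 FPKM), and a share also depends on the summed keratin level. Summed keratin FPKM was 12778 to 15243 with the control label and 41326 to 77717 with the cKO label.

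**Figure D3:**
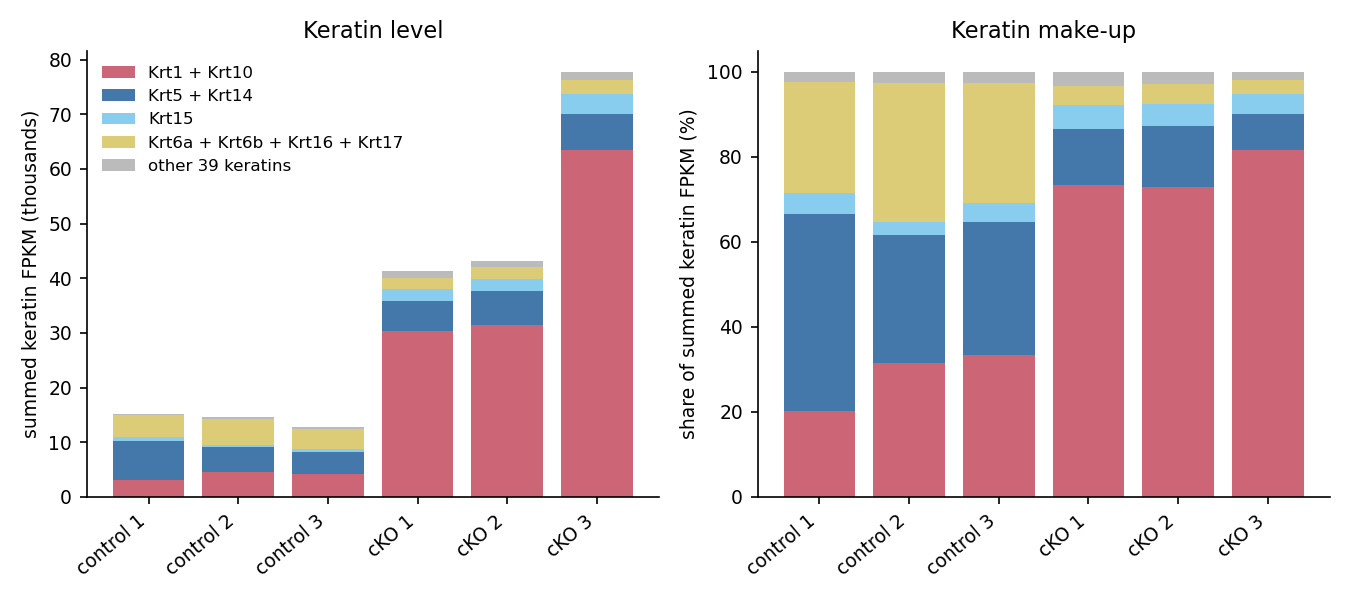
Summed FPKM of 48 keratin genes in each library (left, axis in units of 1000 FPKM) and the percentage held by each set of genes (right). Krt1 and Krt10 hold 20.2 to 33.4% in the control-labelled libraries and 72.9 to 81.6% in the cKO-labelled ones, while the wound keratins hold at most 4.82% in the latter.

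**Figure D4:**
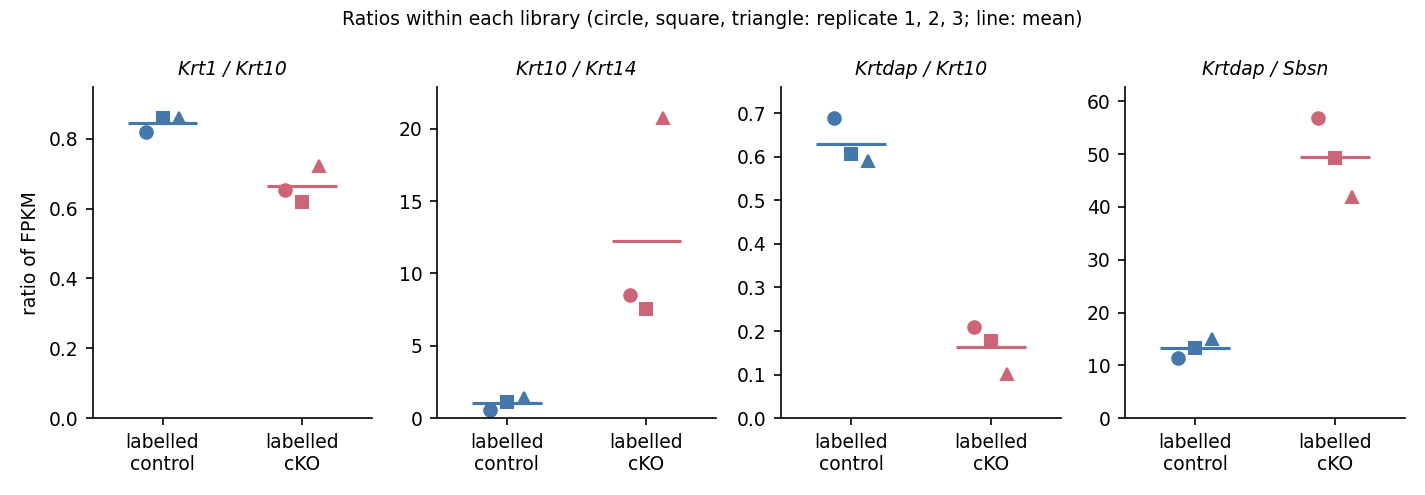
Ratios of FPKM between genes of the same library, 1 point per library with the group mean as a line and every axis starting at 0. Krt1 over Krt10 is lower in all 3 libraries labelled cKO, Krt10 over Krt14 is higher (20.8 in cKO 3), and Krtdap gains on Sbsn but not on Krt10.

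The other keratins went both ways. A gene is called where the limma test over 11603 genes gives a Benjamini-Hochberg adjusted p under 0.05; by that rule 5.87% of all genes (681) were higher and 13.6% (1576) lower with the cKO label. Median-of-ratios scaling changed these counts to 1045 and 997, and leaving out control 2, control 3, cKO 1 or cKO 2 gave 393 to 450 and 710 to 977. Of 10 other type II keratins tested, 1 was called higher (Krt79; 2 without cKO 3) and 2 lower (Krt6a and Krt6b), with a median difference of -0.08. Krt6a, known from wounds and hair follicles, averaged 1153 and 19.5 FPKM (limma adjusted p = 0.000676) and Krt6b 171 and 3.61 FPKM (limma adjusted p = 1.14e-05). Of 19 other type I keratins, 2 were called higher and 4 lower, with a median of -0.36 against -0.17 for all genes. Krt15, a keratin of basal and follicle stem cells, rose from 583 to 2745 FPKM (limma adjusted p = 0.00215), and Krt23 from 0.868 to 4.92 FPKM. Krt16, the partner of KRT6 proteins, fell from 1335 to 431 FPKM (limma adjusted p = 0.00398). The fall of the hair keratin Krt31 (limma adjusted p = 0.0254) was no longer called without control 1, control 2 or cKO 2, where its adjusted p reached 0.0855, and the 4 lower type I genes became 2 without control 2, control 3 or cKO 1 and 1 without cKO 2. Differences of Krt17 (0.18, SE 0.18) and Krt13 (0.13, SE 0.62) did not pass the test. Krt4, an oesophageal keratin, was below the minimum. Krt5 shares 12.2% of its stretches of 50 bases with other transcripts in GENCODE M21, Krt6a first among them, and Krt14 13.9%, mainly with Krt16; Krt1, Krt77, Krt2, Krt78 and Krtdap share none.

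Among 32 other spinous genes 15 were called higher and 3 lower, 46.9% and 9.38% of the list, beside 5.87% and 13.6% of all genes. Their median was 0.68 beside -0.17 for all genes. Lgals7, which encodes a galectin of stratified epithelia, rose from 498 to 1742 FPKM, Acer1 from 3.50 to 38.5 FPKM and Perp, a desmosome gene, from 1156 to 2430 FPKM (limma adjusted p = 0.00116, 0.00116 and 0.00152). The desmosomal cadherin gene Dsg1a rose 3.23-fold (limma adjusted p = 0.00320) and Notch3, a receptor gene of the Notch pathway, 2.87-fold (limma adjusted p = 0.00852). Serpinb2, a serpin of stressed and late keratinocytes, fell from 215 to 9.40 FPKM. Calm4 (0.71, SE 0.37) and Dsc1 (0.01, SE 0.34) did not pass the test, and Dsc1 was at -0.35 without cKO 3. Leaving out any 1 library gave 12 to 15 spinous genes higher and 2 to 4 lower. The list was drawn up with earlier results on these libraries known and is not independent evidence of its direction.

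Genes of the next layer went both ways. Of 29 granular and cornified envelope genes tested, 7 were called higher (24.1%) and 8 lower (27.6%), with a median of -0.25. The shares of all genes were 5.87% and 13.6%. Flg, which encodes filaggrin, rose from 1.22 to 6.67 FPKM (limma adjusted p = 0.00374). Spink5, a protease inhibitor gene, fell from 31.6 to 6.96 FPKM, the kallikrein gene Klk5 from 42.8 to 11.4 FPKM, and the small proline-rich genes Sprr1a and Sprr2h from 233 to 38.5 and from 13.7 to 0.451 FPKM (limma adjusted p = 0.00157, 0.00169, 0.00169 and 0.00241). Lor, the loricrin gene, was at 1.81 (SE 0.56, limma adjusted p = 0.0559), and passed without cKO 3 (2.44, adjusted p = 0.00823) and under both other scalings; Ivl was at 0.25 (SE 0.31). The 7 higher became 4 without control 2, control 3 or cKO 2.

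Of 45 regulators of suprabasal differentiation, 11 were called higher (24.4%) and 7 lower (15.6%), with a median of 0.12. Over all genes tested these shares were 5.87% and 13.6%, so the share called lower was close to that of all genes. Tfap2e, an AP-2 factor gene, rose from 1.07 to 17.6 FPKM (limma adjusted p = 0.000747). The AP-1 gene Fosl1 fell from 4.86 to 0.0696 FPKM, and the ETS family genes Ehf and Ets1 from 9.68 to 1.40 and from 55.1 to 10.5 FPKM (limma adjusted p = 0.00136, 0.00193 and 0.00305). Trp63 (0.40, SE 0.23), Ovol1 (0.42, SE 0.43) and Grhl3 (0.23, SE 0.24), genes of known keratinocyte regulators, did not pass the test. Klf4 was called lower (-0.65, SE 0.18, limma adjusted p = 0.0378), a call lost in 10 of 13 alternatives, every library left out among them (adjusted p up to 0.113). The 11 higher became 7 without control 2 or control 3, and the 7 lower became 4 without control 2.

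**Figure D5:**
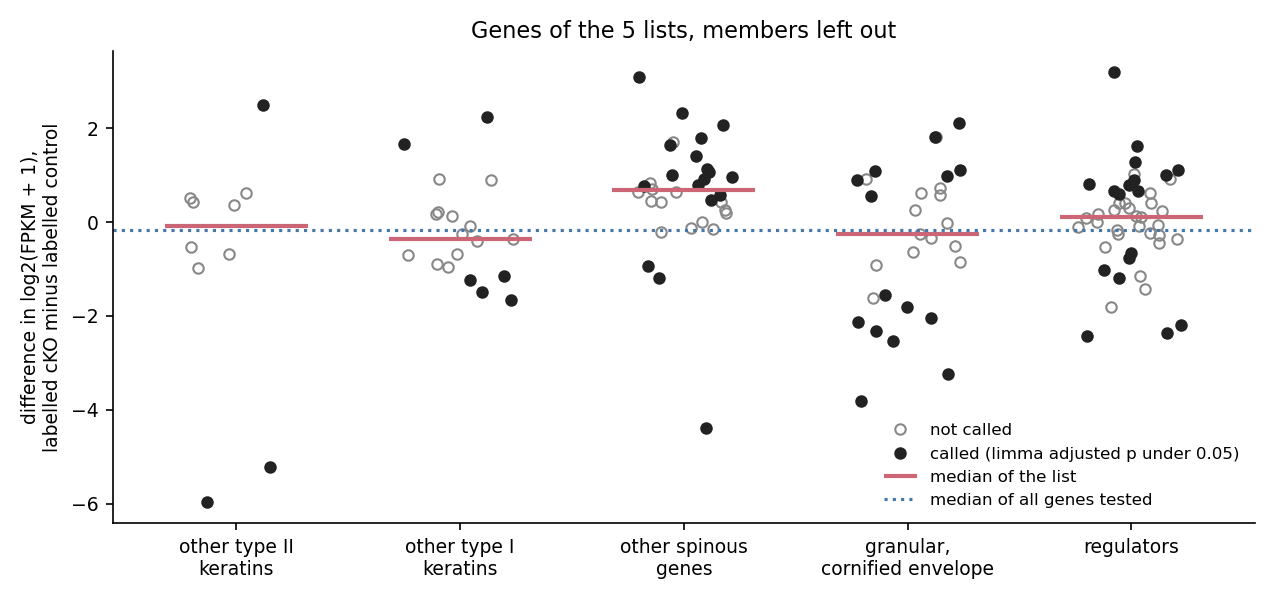
Difference in log2(FPKM + 1), libraries labelled cKO minus the control-labelled ones, for the tested genes of 5 lists; filled points are called and the red line is the median of the list. The median of the other spinous genes (0.68) lies furthest above that of all genes (-0.17), while keratins and granular genes lie on both sides.

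Markers of other cells were read in the same way. For melanocytes all 13 were called lower, their summed level being 3180 to 3661 FPKM in the control-labelled libraries and 200 to 432 FPKM in the cKO-labelled ones. Fibroblast and dermal condensate markers summed to 1242 to 2006 FPKM and 397 to 1179 FPKM, with 1 of 16 called higher and 1 lower. The mean log2(FPKM + 1) of the same 16 genes was 3.42, 4.21 and 5.02 in control 1, 2 and 3. In cKO 1, 2 and 3 it was 5.06, 4.85 and 3.62. By that mean the groups overlapped and cKO 1 was the highest library, so the lower sums do not hold for the markers at large. Of 24 basal keratinocyte genes 3 were called higher and 4 lower. For these marker counts too, the shares of all genes were 5.87% higher and 13.6% lower. Immune, endothelial, red blood cell and Merkel cell markers summed to at most 9.76, 8.28, 48.8 and 27.7 FPKM in any library, with none called in either direction of the 2, 2, 3 and 7 tested. No listed marker in the table was at 0 in all libraries. The part of these cells in the keratin differences was not tested.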

How the data were processed

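The authors deposited 1 table of FPKM values per gene and library, 3 labelled control and 3 labelled cKO. Reads were handled with fastp, HISAT2 and HTSeq on the build GRCm39, per the submitters' processing notes. For the annotation release and strand setting, the sources used here give nothing. Whole fragments were recovered for 17024 of 17025 genes (tolerance 1e-09) as the smallest whole numbers that fit; for rare genes the true counts may be a multiple. The 11603 genes that averaged 1 FPKM or more entered a limma fit (version 3.58.1, R 4.3.3) of log2(FPKM + 1) on group, with a mean-variance trend and Benjamini-Hochberg adjustment; the step was tested on simulated data. The difference scale understates changes of low genes. Members, lists and rules were chosen with earlier results of these data known. Named genes are the members, Ash2l, a fixed set, the 4 called genes of smallest adjusted p in each list, and the 3 genes closest in pattern to each member; Itga6, Krt12, Krt28, Krt35 and Krt90 were added after their values were seen, and some genes that the rule names are not reported here. Promoters are from RefSeq (GRCm38.p6), and gene order and transcripts from GENCODE M21 (GRCm38), another build than that of the table. Protein sequences were not used here. Figures were drawn with matplotlib 3.10.9.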

Additional observations from a re-analysis of the deposited data

How the results depend on the processing

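Of 13 alternatives 4 (both filters, the variance trend and the block) cannot move a difference between group means. In the other 9 the members kept their sign, except Krt2 and Krt80, which turned without cKO 3. Scaling by the median of ratios moved Krtdap to 1.68 and Sbsn to -0.21, all calls to 1045 higher and 997 lower, and the other type II keratins to 2 higher. With the replicate number as a replicate block, calls were 432 higher and 893 lower, 7 regulators were higher, and Ash2l (0.81) missed the threshold (adjusted p = 0.0613). Same-numbered libraries did not deviate together (correlations -0.307, 0.08 and -0.261, against -0.199 to 0.292 for different numbers). With 3 libraries a group, these correlations cannot show whether the number pairs them. The block moved no other count of calls by over 1.5 times. A minimum of 5 FPKM gave 1 type I keratin higher and 2 lower and 5 granular genes lower; no minimum gave 4 type II and 2 type I keratins lower. Leaving out 1 library gave 393 to 713 genes higher and 710 to 1453 lower, 1 to 2 type II keratins higher, 1 to 3 type I keratins lower, 4 to 7 granular genes higher, 7 to 11 regulators higher and 4 to 8 lower, and Ash2l at 0.67 to 0.94. Uncalled genes that changed sign were Krt14 (0.15 by the median of ratios, 0.056 with the total without the members, -0.29 to 0.16 with 1 library left out), Dsc1 (-0.35 to 0.27), Grhl3 (-0.0315 to 0.3817), Krt13 (-0.57 to 0.70) and Krt17 (-0.0094 to 0.2779). With 3 libraries a group, small differences such as that of Krt80 could not be resolved.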

Other observations

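Krt90, a type II keratin gene below the minimum for testing, stood at 1.15, 1.48 and 0.530 FPKM in the control-labelled libraries and was listed at 0 in all the cKO-labelled ones. Krt4, also below that minimum, stood at 0.624, 0.113 and 0.543 FPKM and at 0.948, 0.785 and 1.59 FPKM. These values rest on 42, 8 and 38 fragments and on 68, 57 and 122 fragments. The follicle keratins Krt28 and Krt35 were higher in cKO 1 and 2 (7.65 and 8.97 FPKM, and 3.99 and 5.24 FPKM) than in cKO 3 (1.12 and 0.467 FPKM), the library in which Krt1, Krt10 and Krt77 were highest.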
